A study of Homo sapiens with 24 samples.

Results

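Nestin (NES), vimentin (VIM), brain fatty acid binding protein (FABP7), prominin 1 (PROM1) and Musashi 1 (MSI1) are genes commonly used to mark neural stem and progenitor cells. They were chosen by gene symbol, as the 6 rows annotated to these 5 symbols among 37900 rows of the deposited array values. VIM had 2 rows with identical values, which were counted once, so that 5 measurements stood for 5 of 17760 named genes. The probes were ILMN_1738147 for NES, ILMN_1782538 for VIM (its repeat was ILMN_2058251), ILMN_1745299 for FABP7, ILMN_1786720 for PROM1 and ILMN_1739601 for MSI1. All 5 genes lay above background on each of the 24 arrays, those of undifferentiated cells included.

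Nestin and vimentin are intermediate filament proteins that assemble with each other in the cytoskeleton of neuroepithelial cells, and vimentin is also the main filament of mesenchymal cells. FABP7 carries long-chain fatty acids and is a classical marker of radial glia, the progenitors that line the wall of the developing brain. Prominin 1, the CD133 antigen, is a membrane protein of cell protrusions that is used to sort stem cells of several tissues. Musashi 1 is an RNA-binding protein that represses the translation of its targets, among them the Notch inhibitor Numb, and is found in neural precursors. Several of these genes are also active in human pluripotent stem cells, from which neural progenitors are made in culture.

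The cells were H1, an established line of human embryonic stem cells. They were grown without feeders on Matrigel in mTeSR, a medium for stem cells, dissociated, plated densely, grown to confluency and then moved to a medium with serum replacement. The agent was dorsomorphin (compound C), which blocks the type I receptors of bone morphogenetic proteins (BMP) and AMP-activated protein kinase. The labels give no dose. Total RNA was taken at 0, 12, 24, 36, 48 and 72 h of induction and hybridised to Illumina HumanHT-12 v4 bead arrays, 4 arrays per time. The 0 h group is the starting culture, and the 5 later groups carry both the compound and the new medium. The study asked how transcript levels change while these cells turn towards neural stem cells, per its design text. No untreated later cultures were among the samples, so time, medium and compound cannot be told apart. Whether the 4 arrays of a time came from separate cultures is not stated in the labels. The p-values therefore cover only the array-to-array spread, which may be technical.

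Values are log2 signals, where a difference of 1 is a 2-fold difference, and they ranged from 5.57 to 15.51 over the whole table. A level is a mean of 4 arrays with its standard deviation (SD), and a difference is given with the standard error (SE) of the fit. Background was set at 7.10, the 99th percentile of 387 olfactory receptor measurements, and 9251 to 9474 genes exceeded it on each array. A probe signal below background does not show that a gene is silent. Of the named genes, 10215 exceeded it on at least 4 arrays and were tested with limma, adjusted by the Benjamini-Hochberg method at a threshold of 0.05. Across measurements, Pearson correlations within a time were 0.986 to 0.993. The starting cells had the stem cell factor POU5F1 at 12.36, LIN28A at 13.67 and DPPA4 at 12.89, each above background on every array. One array at each time had a low signal of CLEC2A, at most 7.56 against at least 9.10 on the other 18, and these 6 arrays deviated alike across genes, with a median correlation of 0.43 between their deviations. They were replicate 2 at 0 h, replicate 4 at 12 h, replicate 2 at 24 h, replicate 4 at 36 h, replicate 4 at 48 h and replicate 2 at 72 h. What sets them apart was not tested, and results are given with and without them. The number of arrays limits the precision of each value, and array signal does not allow levels of different genes to be compared. In bulk RNA, fewer cells that express a gene and less RNA per cell cannot be told apart.

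The windows upstream of the start sites of NES, VIM and FABP7 are shown because NES and VIM moved together in the first day while FABP7 was lower at the later times. Each holds the 250 bases before a RefSeq start site in GRCh38.p14, 5′ to 3′ on the strand of the gene. NES lies at chr1:156677408-156677657 on the minus strand, VIM at chr10:17227991-17228240 on the plus strand and FABP7 at chr6:122779466-122779715 on the plus strand. Capitals mark matches on either strand to GC boxes (GGGCGG) and CCAAT boxes (CCAAT).
NES: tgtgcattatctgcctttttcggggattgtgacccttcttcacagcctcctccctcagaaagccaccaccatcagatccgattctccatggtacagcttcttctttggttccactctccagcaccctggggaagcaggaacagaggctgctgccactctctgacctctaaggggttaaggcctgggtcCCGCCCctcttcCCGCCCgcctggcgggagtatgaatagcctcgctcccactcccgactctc
VIM: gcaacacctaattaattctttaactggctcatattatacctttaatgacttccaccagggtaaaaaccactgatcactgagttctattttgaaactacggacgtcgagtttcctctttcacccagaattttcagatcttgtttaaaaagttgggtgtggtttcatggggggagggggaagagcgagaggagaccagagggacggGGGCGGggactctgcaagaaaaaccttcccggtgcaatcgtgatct
FABP7: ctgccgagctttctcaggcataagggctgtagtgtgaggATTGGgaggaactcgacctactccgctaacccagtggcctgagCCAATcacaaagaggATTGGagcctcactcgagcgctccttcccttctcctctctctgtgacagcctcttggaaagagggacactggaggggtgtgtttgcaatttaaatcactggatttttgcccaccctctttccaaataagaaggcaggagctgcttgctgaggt
The other motifs searched, the TATA box (TATAAA), the AP-1 site (TGANTCA), the octamer (ATGCAAAT) and the SOX core (AACAAT), had no match in these 3 windows. The NES window held 2 GC boxes and the VIM window 1, and the FABP7 window held 3 CCAAT boxes and 0 GC boxes. Among 35116 windows of the same length before RefSeq start sites, 42.6% held a GC box and 32.0% a CCAAT box. The shares were 10.7% for the TATA box, 6.57% for the AP-1 site, 1.63% for the octamer and 8.98% for the SOX core. Both strands were searched and no motif overlapped another in these windows. Of the 5 genes, 4 were in the table of start sites, with 4 start sites for PROM1. The PROM1 windows, not printed, held 1 CCAAT box, 1 GC box and 1 AP-1 site, each in a different window, and the fourth held none of the motifs. Whether any motif bears on the courses of these genes was not tested.

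The 5 marker genes did not move as a group. NES and VIM were higher in the first day and back near the starting level at 72 h, PROM1 was lower in the first day, FABP7 was lower from 36 h on, and MSI1 was higher from 36 h on. In the moderated F test over the course all 5 passed, a test that 48.9% of the tested genes passed. The median size of the change from 0 h was 0.46 on the log2 scale for the 5 genes and 0.12 for all tested genes at 12 h, and it was 0.21 for both at 72 h.

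NES was higher than at 0 h through 36 h. Its arrays read 10.32, 10.34, 10.84 and 10.55 at 0 h, 11.33, 11.59, 10.97 and 11.61 at 12 h, then 11.16, 11.18, 11.59 and 11.07 at 24 h. They read 11.19, 11.44, 11.75 and 11.48 at 36 h, 10.71, 11.01, 11.02 and 10.96 at 48 h, then 10.28, 10.76, 10.51 and 10.68 at 72 h. Every array at 12, 24 and 36 h lay above every array at 0 h, while the arrays at 48 h and at 72 h overlapped those at 0 h. The level was 11.38 ± 0.30 at 12 h against 10.51 ± 0.24 at 0 h (SD, n = 4 arrays each), a difference of 0.87 ± 0.15 (SE), 1.82-fold, with an adjusted p of 0.000925 in limma. At 24 h the level was 11.25 ± 0.23 and the difference from 0 h was 0.74 (adjusted p = 0.00293 in limma). At 36 h it was 11.47 ± 0.23, which was 0.95 above 0 h or 1.94-fold (adjusted p = 6.92e-05 in limma). At 48 h the level was 10.93 ± 0.15, and the difference of 0.41 from 0 h did not pass (adjusted p = 0.0508 in limma). It passed in 15 of 40 alternative settings, with adjusted p-values of 0.0192 to 0.0499 in these.

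By 72 h NES stood at 10.56 ± 0.21, and the difference from 0 h was 0.05 with a 95% interval of -0.27 to 0.36 (adjusted p = 0.847 in limma). The decline was also tested. The comparison of 72 h with 36 h was added after the data were seen, and 36 h had the highest NES mean. The p-value does not account for that choice. NES was lower at 72 h than at 36 h by 0.91 on the log2 scale (difference -0.91, adjusted p = 7.37e-05 in limma), and all 4 arrays at 72 h lay below all 4 at 36 h. At 48 h the difference from 36 h was -0.54 (adjusted p = 0.0366 in limma), the 4 arrays at 48 h again lay below those at 36 h, and the call was lost when any of 7 single arrays was left out (adjusted p 0.0532 to 0.134), namely replicate 2, 3 or 4 of 36 h or any replicate of 48 h. It was also lost without the 6 low-CLEC2A arrays (-0.55, adjusted p = 0.0713 in limma). Among all tested genes, 2.05% were both higher at 36 h than at 0 h and lower at 72 h than at 36 h, and NES was the only one of the 5 marker genes with this pattern. Without the 6 low-CLEC2A arrays the NES difference was 0.73 at 12 h, 0.71 at 24 h and 0.89 at 36 h against 0 h, with limma adjusted p-values of 0.0198, 0.0184 and 0.0015.

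VIM, the filament partner of nestin, was higher than at 0 h at 12 and 24 h. Its arrays read 12.78, 12.69, 12.47 and 12.80 at 0 h, 13.04, 13.28, 12.96 and 13.25 at 12 h, then 13.29, 13.36, 13.45 and 12.92 at 24 h. Later readings were 12.75, 12.51, 13.11 and 12.87 at 36 h, 12.71, 12.63, 13.09 and 12.76 at 48 h, then 12.49, 12.76, 12.60 and 12.70 at 72 h. All arrays at 12 and 24 h exceeded all arrays at 0 h, and those of the 3 later times overlapped them. The level at 24 h was 13.26 ± 0.23 against 12.68 ± 0.15 at 0 h (SD, n = 4 arrays each), higher by 0.57 ± 0.13 (SE) or 1.49-fold (adjusted p = 0.00663 in limma). At 12 h the level was 13.14 ± 0.15, a difference of 0.45 from 0 h (adjusted p = 0.0363 in limma). That 12 h call was lost without any one of the 4 arrays at 0 h or of replicates 1, 2 and 4 at 12 h (adjusted p 0.0584 to 0.108), and without the 6 low-CLEC2A arrays (0.41, adjusted p = 0.157). The 24 h difference without those 6 arrays was 0.54 (adjusted p = 0.0449 in limma).

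VIM declined between 24 and 36 h. The level at 36 h was 12.81 ± 0.25, lower than at 24 h by 0.45 on the log2 scale (difference -0.45, adjusted p = 0.0232 in limma), although 1 array at 36 h lay within the range of 24 h. This interval call did not hold without replicate 1 or 3 of 24 h or replicate 1 or 2 of 36 h (adjusted p 0.051 to 0.0866), nor without the 6 low-CLEC2A arrays (-0.43, adjusted p = 0.0681), and the exact permutation p was 0.0571. At 48 h the level was 12.80 ± 0.20, and at 72 h it was 12.63 ± 0.12, 0.62 below 24 h (difference -0.62, adjusted p = 0.00061 in limma). The comparison of 72 h with 24 h was added after the data were seen, and 24 h had the highest VIM mean. Against 0 h the 72 h difference was -0.05 with a 95% interval of -0.32 to 0.22 (adjusted p = 0.811). Of all tested genes, 1.51% were higher at 24 h than at 0 h and lower at 72 h than at 24 h, and both NES and VIM were among them. Whether the courses of NES and VIM differ from each other was not tested.

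**Figure D1:**
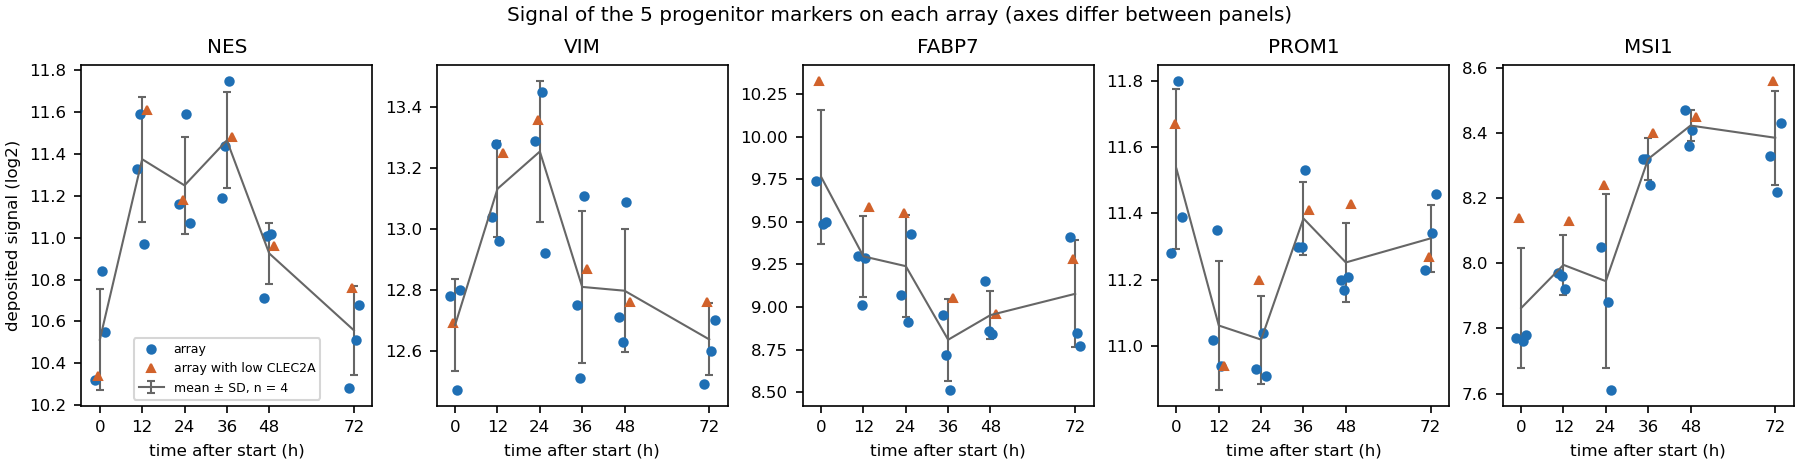
Log2 signal of NES, VIM, FABP7, PROM1 and MSI1 (one panel each) against hours of induction, with a point for each of the 4 arrays per time (triangles for low-CLEC2A arrays), the mean with its SD, and a separate axis range per panel. NES and VIM have their highest means at 36 h and at 24 h, FABP7 and PROM1 have theirs at 0 h, and MSI1 has its highest at 48 h.

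PROM1 moved the other way in the first day. Its arrays read 11.28, 11.67, 11.80 and 11.39 at 0 h, 11.02, 11.35, 10.94 and 10.94 at 12 h, then 10.93, 11.20, 11.04 and 10.91 at 24 h. At the later times they read 11.30, 11.30, 11.53 and 11.41 at 36 h, 11.20, 11.17, 11.21 and 11.43 at 48 h, then 11.23, 11.27, 11.34 and 11.46 at 72 h. The arrays at 24 h all lay below those at 0 h, and at every other time at least 1 array reached into the 0 h range. At 24 h the level was 11.02 ± 0.13 against 11.53 ± 0.24 at 0 h (SD, n = 4 arrays each), a difference of -0.51 ± 0.11 (SE; adjusted p = 0.00517 in limma). The 12 h level was 11.06 ± 0.20, a difference of -0.47 from 0 h (adjusted p = 0.0124 in limma), and this call was lost without replicate 4 of 12 h (adjusted p = 0.0511) and without the 6 low-CLEC2A arrays (-0.38, adjusted p = 0.0953). The 24 h difference was -0.53 without those 6 arrays (adjusted p = 0.0163 in limma).

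PROM1 was higher again at 36 h, at 11.38 ± 0.11, by 0.36 over 24 h (adjusted p = 0.032 in limma), and no array of 36 h overlapped those of 24 h. Leaving out any of replicates 1, 3 and 4 at 24 h or at 36 h ended that call (adjusted p 0.0534 to 0.111), and without the 6 low-CLEC2A arrays it was 0.41 (adjusted p = 0.0339). The same difference between 72 and 24 h was 0.30 (adjusted p = 0.0422 in limma). That comparison was added after the data were seen, and 24 h had the lowest PROM1 mean. PROM1 stood at 11.25 ± 0.12 at 48 h and 11.33 ± 0.10 at 72 h, where its difference from 0 h was -0.21 with a 95% interval of -0.44 to 0.03 (adjusted p = 0.152 in limma). A fall at 24 h followed by a rise at 36 h was shared by 0.460% of the tested genes, 47 in number.

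FABP7, the radial glial marker, fell. Its arrays read 9.74, 10.33, 9.49 and 9.50 at 0 h, 9.30, 9.01, 9.29 and 9.59 at 12 h, then 9.07, 9.55, 8.91 and 9.43 at 24 h. They read 8.95, 8.72, 8.51 and 9.05 at 36 h, 9.15, 8.86, 8.84 and 8.96 at 48 h, then 9.41, 9.28, 8.85 and 8.77 at 72 h. From 36 h on, every array lay below every array at 0 h, and replicate 2 of 0 h, a low-CLEC2A array, was the highest of all 24. The level was 8.81 ± 0.24 at 36 h against 9.76 ± 0.39 at 0 h (SD, n = 4 arrays each), a difference of -0.95 ± 0.18 (SE; adjusted p = 0.000468 in limma). At 48 h it was 8.95 ± 0.14, a difference of -0.81 (adjusted p = 0.00169). At 72 h it was 9.08 ± 0.31, a difference of -0.69 or 0.621 of the 0 h signal, with a 95% interval of -1.06 to -0.31 (adjusted p = 0.00382 in limma). Levels at 12 and 24 h were 9.30 ± 0.24 and 9.24 ± 0.30, and their differences of -0.46 and -0.52 did not pass (adjusted p = 0.134 and 0.0759).

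The low-CLEC2A array was the highest FABP7 array of its time at 4 of 6 times. Without those 6 arrays the FABP7 difference from 0 h was -0.85 at 36 h, -0.63 at 48 h and -0.57 at 72 h, with limma adjusted p-values of 0.00117, 0.0096 and 0.0115. With a term for them in the model the differences at 12 and 24 h passed as well (adjusted p = 0.0391 and 0.0179 in limma). No interval between neighbouring times passed for FABP7 in the model without that term, the closest being 36 h against 24 h at -0.43 (adjusted p = 0.104).

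MSI1 was the only one of the 5 genes that was higher than at the start at 72 h. Its arrays read 7.77, 8.14, 7.76 and 7.78 at 0 h, 7.97, 7.96, 7.92 and 8.13 at 12 h, then 8.05, 8.24, 7.88 and 7.61 at 24 h. They read 8.32, 8.32, 8.24 and 8.40 at 36 h, 8.47, 8.36, 8.41 and 8.45 at 48 h, then 8.33, 8.56, 8.22 and 8.43 at 72 h. All 12 arrays from 36 h on exceeded all 4 arrays at 0 h, and the 12 and 24 h arrays overlapped these. The level at 72 h was 8.39 ± 0.14 against 7.86 ± 0.18 at 0 h (SD, n = 4 arrays each), a difference of 0.52 ± 0.11 (SE), 1.44-fold, with a 95% interval of 0.29 to 0.76 (adjusted p = 0.000547 in limma). At 36 h the level was 8.32 ± 0.07 and the difference 0.46 (adjusted p = 0.00473), and at 48 h it was 8.42 ± 0.04 and the difference 0.56 (adjusted p = 0.000549). At 12 and 24 h the levels of 7.99 ± 0.09 and 7.94 ± 0.27 were not distinguished from 0 h (adjusted p = 0.555 and 0.736 in limma).

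The step in MSI1 fell between 24 and 36 h, where the difference was 0.38 (adjusted p = 0.0245 in limma). That call was lost without replicate 3 or 4 of 24 h or replicate 1 or 4 of 36 h (adjusted p 0.0593 to 0.134), and 1 array of 24 h reached the 36 h range, with an exact permutation p of 0.0571. Without the 6 low-CLEC2A arrays it was 0.45 (adjusted p = 0.0071 in limma). Over the longer spans the differences were 0.48 for 48 against 24 h (adjusted p = 0.0079) and 0.44 for 72 against 24 h (adjusted p = 0.00329 in limma). Both spans were added after the data were seen. The low-CLEC2A array was the highest MSI1 array at 5 of 6 times. Without those arrays the differences from 0 h were 0.52 at 36 h, 0.64 at 48 h and 0.56 at 72 h, with limma adjusted p-values of 0.00156, 0.000152 and 0.000345.

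At 12 h, 3 of the 5 genes differed from 0 h (NES and VIM higher, PROM1 lower), where 6.08% of all tested genes did. At 24 h the same 3 genes differed in the same directions, where 7.21% of all tested genes did. At 36 h the 3 were NES and MSI1, higher, and FABP7, lower, against 17.0% of tested genes. At 48 h and at 72 h they were MSI1, higher, and FABP7, lower, 2 of 5 beside a background of 21.2% and 35.9%. NES, VIM and PROM1 were at 72 h not distinguished from 0 h. In the exact permutation test of 4 against 4 arrays, two-sided, the smallest p that 70 splits allow is 0.0286, and it was reached by 2 genes at 12 h, 3 at 24 h, 3 at 36 h, 2 at 48 h and 2 at 72 h. These are the genes whose arrays did not overlap, which was so for 8.58%, 10.7%, 17.4%, 20.8% and 31.1% of all tested genes at these times.

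**Figure D2:**
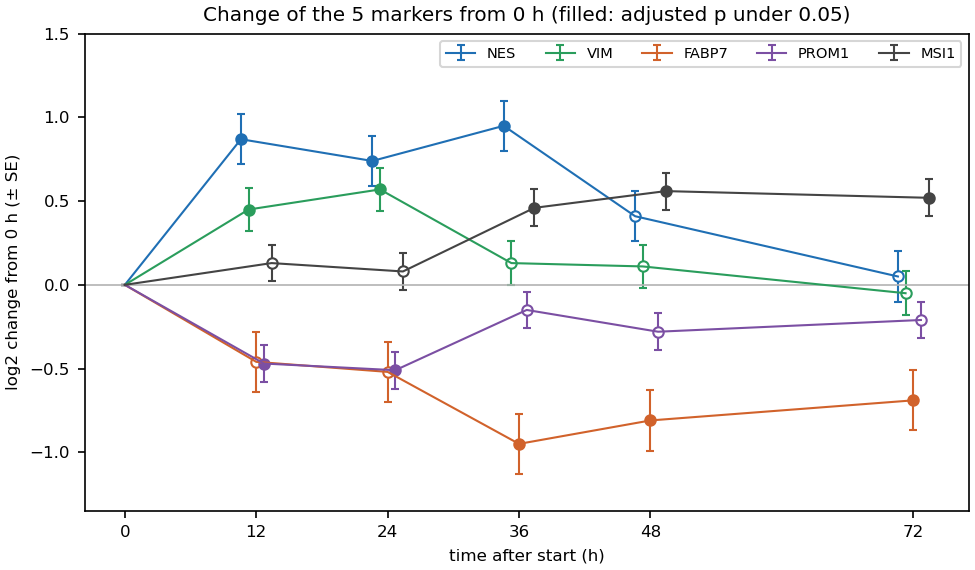
Difference in log2 signal from 0 h at 12, 24, 36, 48 and 72 h for the 5 marker genes, with the SE of the limma fit as bars, 0 h drawn at 0 and filled points for an adjusted p under 0.05. NES and VIM lie above 0 early and close to 0 at 72 h, PROM1 lies below 0 at 12 and 24 h, and FABP7 and MSI1 lie on opposite sides of 0 from 36 h on.

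Between neighbouring times, the step from 0 to 12 h was passed by 3 of the 5 genes, as given above. From 12 to 24 h 0 of the 5 genes passed in limma (6.57% of tested genes did), with 0 at an unadjusted p under 0.05 and 0 in the exact permutation test. The step to 36 h was passed by 3 genes, PROM1 and MSI1 higher and VIM lower, beside 14.4% of tested genes. From 36 to 48 h only NES passed, beside 5.27% of tested genes. From 48 to 72 h 0 passed in limma (6.21% of tested genes did), with 1 at an unadjusted p under 0.05 and 0 in the exact permutation test. Over longer spans, added after the data were seen, NES was lower at 72 h than at 36 h, 1 of 5 genes beside 26.8% of tested genes. At 72 h against 24 h 4 of 5 passed (MSI1 and PROM1 higher, NES and VIM lower), beside 30.4%, and at 72 h against 12 h 3 of 5 (MSI1 higher, NES and VIM lower), beside 37.8%. At 48 h against 24 h 2 of 5 passed (MSI1 higher, VIM lower), beside 8.81%, and at 48 h against 12 h 2 of 5 (MSI1 higher, NES lower), beside 22.6%. At 36 h against 12 h 0 of 5 passed in limma, beside 5.17%, with 4 at an unadjusted p under 0.05 and 1 in the exact permutation test.

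The 6 levels of each gene were also put in order. NES ran, from low to high, 0, 72, 48, 24, 12 and 36 h, VIM 72, 0, 48, 36, 12 and 24 h, and FABP7 36, 48, 72, 24, 12 and 0 h. PROM1 ran 24, 12, 48, 72, 36 and 0 h, and MSI1 0, 24, 12, 36, 72 and 48 h. No 2 neighbours in any of these orders differed past the threshold in limma, the lowest adjusted p being 0.0878, for MSI1 at 36 h over 12 h. Sorting puts the closest levels side by side, so this does not show that any part of a course was flat. The distance between the lowest and highest mean was 0.95 for NES and for FABP7, 0.62 for VIM, 0.56 for MSI1 and 0.51 for PROM1. The F statistic was 15.2 for NES, 10.2 for MSI1, 7.61 for VIM, 6.97 for FABP7 and 6.04 for PROM1, with adjusted p-values of 1e-05, 0.000155, 0.000923, 0.00151 and 0.00321 in limma.

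The arrays could also be split by replicate number, since replicates 1 and 2 had a slightly higher lower quartile (6.525 to 6.530) than replicates 3 and 4 (6.514 to 6.520). Within replicates 1 and 2 the NES difference from 0 h was 1.13 at 12 h and 0.98 at 36 h (adjusted p = 0.00796 and 0.00609 in limma, n = 2 arrays per time). Within replicates 3 and 4 it was 0.60 and 0.93 (adjusted p = 0.354 and 0.0354). The VIM difference at 24 h was 0.59 and 0.55 in the 2 sets, and neither passed with 2 arrays per time (adjusted p = 0.0737 and 0.196 in limma). For PROM1 at 24 h the values were -0.41 and -0.61 (adjusted p = 0.297 and 0.0757 in limma). FABP7 at 72 h was -0.69 and -0.68 and passed in both sets (adjusted p = 0.0365 and 0.0374), as did MSI1 at 0.49 and 0.55 (adjusted p = 0.0303 and 0.0207 in limma).

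Genes with the most similar courses were named by Pearson r over the 24 arrays, 3 for each marker gene among all others tested. These correlations describe arrays of 1 cell line that share times and normalization, and the named genes were picked for them. For NES they were IL32 and CAPN13, both at 0.872, and ACTG2, a smooth muscle actin, at 0.864. ACTG2 had a level of 11.21 at 12 h and 9.31 at 0 h, a difference of 1.90 ± 0.19, and 8.91 at 72 h. IL32 was at 8.44 at 36 h and 7.03 at 0 h, where 1 of 4 arrays lay above background, and at 7.26 at 72 h. For VIM the closest were CALD1, an actin-binding caldesmon, at 0.808, STK17B at 0.797 and the chemokine CXCL14 at 0.791. CXCL14 was higher at 24 h than at 0 h by 1.30 ± 0.16 (adjusted p = 1.43e-05 in limma), and all 4 arrays of 72 h were below background.

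FABP7 ran most like S100A4, a calcium-binding protein, at 0.879, SCD, the stearoyl-CoA desaturase, at 0.854, and DBI, the acyl-CoA binding protein, at 0.849. SCD was 0.90 lower at 72 h than at 0 h (difference -0.90 ± 0.14, adjusted p = 1.84e-05 in limma). S100A4 was 0.86 lower at 36 h (difference -0.86 ± 0.13, adjusted p = 3e-05), whereas its 72 h difference of -0.30 did not pass (adjusted p = 0.0655). Without the 6 low-CLEC2A arrays these 3 correlations were 0.871, 0.782 and 0.760. PROM1 had the weakest likeness, with the transporter ABCC4 at 0.801, ZNF551 at 0.745 and TEX15 at 0.726. MSI1 ran like SLC44A2, a choline transporter-like protein, the semaphorin SEMA4C and the semaphorin receptor NRP2, each at 0.922. SLC44A2 was at 11.71 at 72 h and 10.68 at 0 h, a difference of 1.03 ± 0.12, and SEMA4C at 9.20 and 8.46, a difference of 0.74 ± 0.11 (adjusted p = 2.28e-07 and 7.72e-06 in limma). NRP2 was at 7.87 at 72 h and 6.89 at 0 h, where 1 of 4 arrays lay above background.

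**Figure D3:**
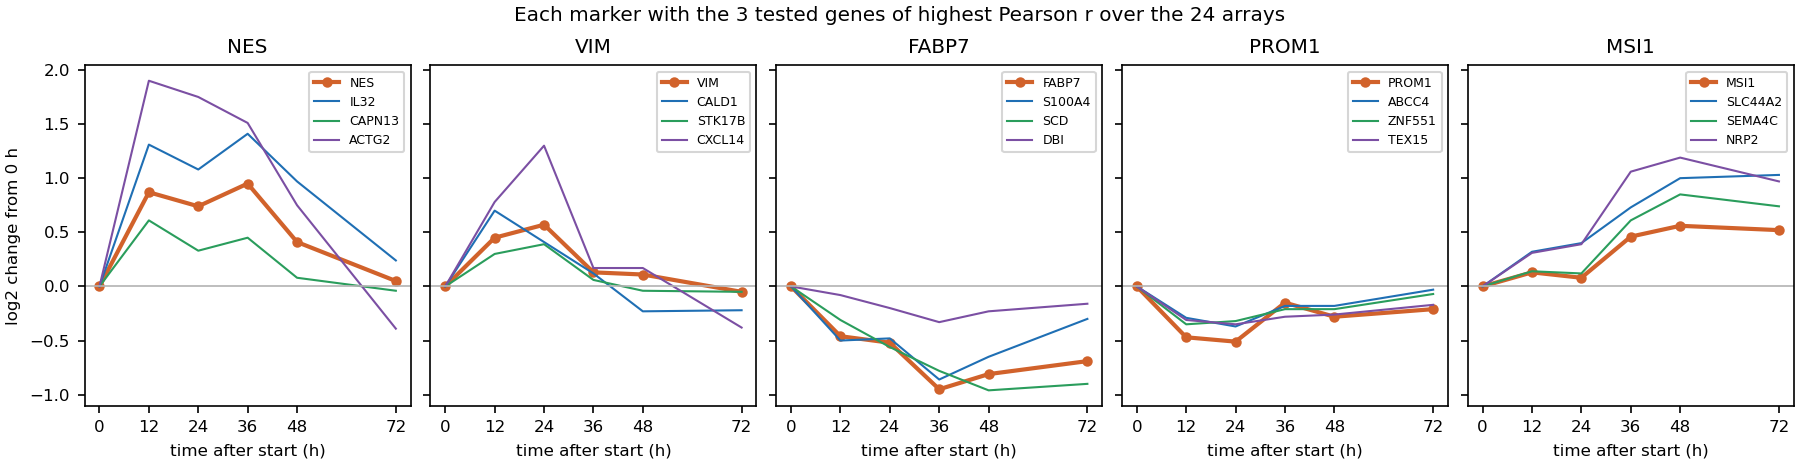
Difference in mean log2 signal from 0 h of each marker gene (thick line) and of the 3 genes with the highest Pearson r to it over 24 arrays, against hours of induction, with no error bars. The genes drawn with NES peak by 36 h and those drawn with MSI1 stay high at 72 h.

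Most tested neural plate and progenitor genes other than these 5 were higher at 72 h. Of 34 in the list, which left out the 5 marker genes, 27 were tested, and at 72 h 18 were higher than at 0 h, 3 lower and 6 not past the threshold, with a median difference of 0.85 against 0.01 for all tested genes. In either direction 35.9% of all tested genes passed at that time. At 12 h 1 was higher while 3 were lower. The counts were 6 higher with 1 lower at 24 h, 8 higher with 4 lower at 36 h, then 14 higher with 1 lower at 48 h. SOX21, a SoxB factor of neural progenitors, was at 13.19 at 72 h against 9.36 at 0 h, a difference of 3.82 ± 0.21 (adjusted p = 1.41e-12 in limma). HESX1, a factor of the anterior neural plate, differed by 3.39 ± 0.32 (adjusted p = 1.11e-08), while PAX6, a factor of forebrain and eye, was at 9.85 at 72 h against 6.72 at 0 h (adjusted p = 1.65e-09 in limma), where only 1 of 4 arrays lay above background. MEIS2, a homeodomain factor, was below background at 0 h, and its level at 72 h was at least 3.54-fold higher (adjusted p = 1.83e-13 in limma). The 3 that were lower were the glutamate transporter SLC1A3, at -1.09, and the surface markers CD24, at -0.47, and FUT4, at -0.40. They are named after their values were seen. SOX1, a marker of the neural plate, lay below background on all 24 arrays. A gene was tested when above background on at least 4 arrays of any time. PAX6, SIX3 and MEIS2, dim at 0 h, met this only with arrays of later times. The count of 18 and the median of 0.85 therefore favour genes that rose, and they are descriptive.

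**Figure D4:**
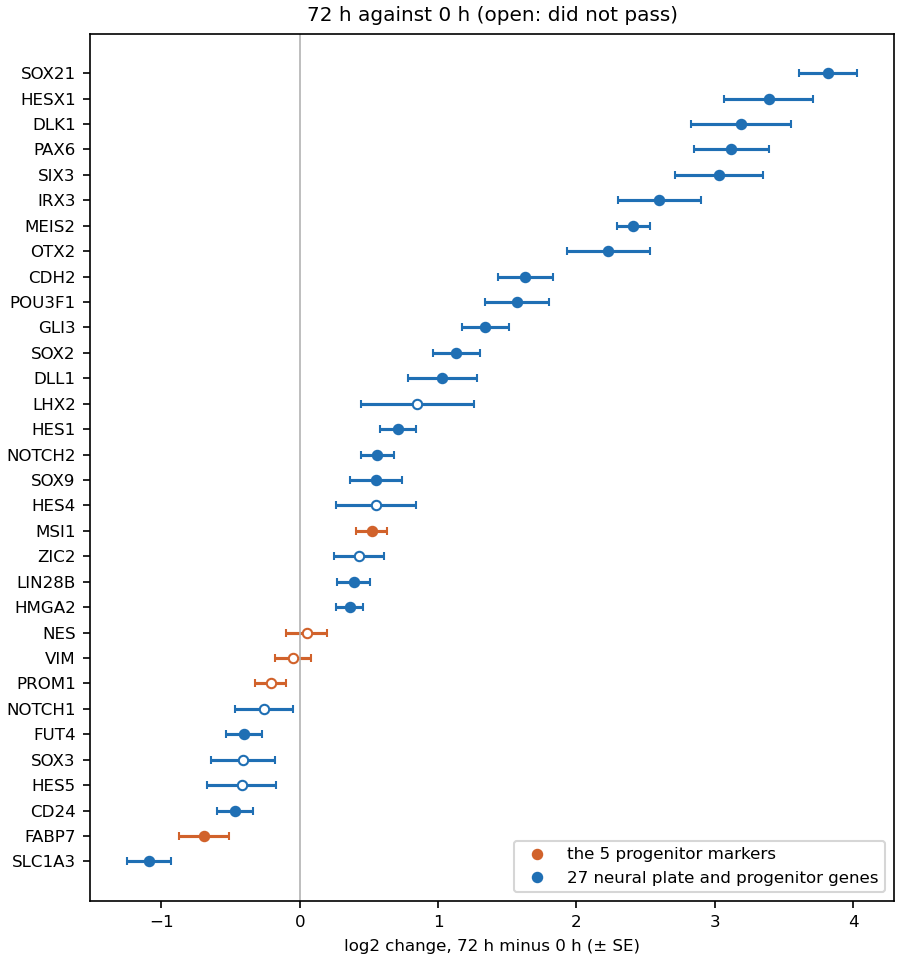
Difference in log2 signal between 72 h and 0 h for the 5 marker genes and the tested genes of the neural plate and progenitor list, with SE bars and open points where the test did not pass. MEIS2 and SIX3 were below background on all 4 arrays at 0 h and PAX6 on all but 1. DLK1 (6.79) and LHX2 (6.90) had 0 h means below background. The plotted differences of these genes have no firm lower level. NES and VIM lie within 0.05 of 0, PROM1 lies at -0.21, MSI1 lies at 0.52 and FABP7 at -0.69. SOX21 and HESX1 exceed 3, as do the plotted values of DLK1, PAX6 and SIX3.

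Of 13 radial glia and astroglia genes beside FABP7, 6 were tested, and at 72 h TNC (0.47) and GLI3 (1.34) were higher and SLC1A3 (-1.09) and PTPRZ1 (-0.35) lower. Among all tested genes, 35.9% differed from 0 h at 72 h. The astroglial genes GFAP, SLC1A2, S100B and AQP4 were below background on all 24 arrays. Of the other fatty acid binding proteins, 3 of 12 were tested. CRABP2, a carrier of retinoic acid, was higher at 72 h than at 0 h, at 12.30 against 11.26, a difference of 1.04 ± 0.13 (adjusted p = 1.25e-06 in limma). FABP6 was lower at 72 h by 0.52 on the log2 scale (difference -0.52, adjusted p = 0.0027), and FABP3 was below background at 72 h and at least 1.22-fold lower. FABP4 and FABP5 were not above background on any array.

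Among other intermediate filament genes 13 of 21 were tested, and at 72 h 0 were higher and 4 lower in limma, while 35.9% of all tested genes passed. The 4 lower filament genes were the simple epithelial keratin KRT8, at -0.99 ± 0.14, the neurofilaments NEFM, at -0.88 ± 0.12, and NEFL, at -0.46 ± 0.14, and the nuclear lamin LMNA, at -0.75 ± 0.15. At 12 and 24 h 0 of the 13 passed in either direction, where 6.08% and 7.21% of all tested genes did, so that few would pass at the background share. The epithelial keratins KRT5 and KRT14 and the muscle filament DES lay below background on all arrays.

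Relatives of prominin and Musashi and proteins tied to Musashi numbered 12, of which 9 were tested. MSI2, the paralog of MSI1, was at 7.93 at 72 h against 7.54 at 0 h, a difference of 0.39 ± 0.14 (adjusted p = 0.0368 in limma). The RNA-binding protein TARDBP was also higher, by 0.41, and HNRNPA1 (-0.44) and HNRNPAB (-0.28) were lower. That made 2 higher and 2 lower of 9, beside 35.9% of all tested genes in either direction. NUMB, whose messenger RNA is a known target of Musashi, differed by 0.21 and did not pass (adjusted p = 0.0635). PROM2 differed by 0.05 (adjusted p = 0.814).

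Because VIM is also a mesenchymal gene, mesenchyme and fibroblast markers were read beside it. Of 14 markers 6 were tested, and COL3A1, LUM, DCN, PRRX1 and FN1 lay below background on all 24 arrays. TAGLN, an actin-associated smooth muscle protein, was higher at 24 h than at 0 h by 1.03 ± 0.25 (adjusted p = 0.00968 in limma) and COL1A1 by 0.87 ± 0.24 (adjusted p = 0.0252), while THY1 was lower at 24 h, at -1.84 ± 0.18 (adjusted p = 5.41e-07). The summed linear signal of the 14 markers was 11200 to 15000 at 0 h, 17200 to 23200 at 12 h, 16400 to 19400 at 24 h, 13600 to 20100 at 36 h, 10400 to 15400 at 48 h and 6770 to 10200 at 72 h. Every sum at 12 and 24 h exceeded every sum at 0 h, and the range at 36 h reached above that at 24 h. The sum weighs bright genes most, and TAGLN was the brightest of the 14 at every time. It therefore does not stand for the set. Of the 6 tested, 1 was higher and 2 lower at 12 h than at 0 h, beside 6.08% of all tested genes. At 24 h 2 were higher and 1 lower, beside 7.21%. The members did not move alike. TAGLN was at 12.49, 13.87, 13.52, 13.31, 12.66 and 11.66 over the 6 times from 0 to 72 h, while COL1A1 had its highest level, 11.46, at 48 h. ACTA2, a smooth muscle actin, was at 9.15 at 0 h, 9.16 at 24 h and 10.12 at 72 h. PDGFRB was at 8.46, 8.17 and 8.24 at these times, with its lowest level, 7.16, at 36 h. COL1A2 was at 9.95, 10.33 and 9.91 at 0, 24 and 72 h. The part of these genes in the VIM and NES results was not tested.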

How the data were processed

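Total RNA of H1 cells, 4 arrays at each of 6 times, had been labelled with biotin and hybridised by the authors, per the labels' protocols. The deposited log2 values were used as the authors gave them. How they were scanned, background-corrected and normalized is not given in the sources used here; their quartiles are nearly equal. The 24 intensity and 24 detection p-value columns of a second deposited table carry names that match no sample and were not used, 48 columns in all.

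Rows with identical values on all arrays (10159 rows in 4746 sets) were counted once, leaving 32487 measurements. Symbols came from the platform annotation, which listed 26228 rows, 26221 with 1 symbol and 7 with several, and left 11672 unnamed. RefSeq held 26191 of them, with 0 symbols to update. A gene was its brightest measurement and was tested when above background on at least 4 arrays, which 10215 genes were and 7545 were not. For a time with no array above background, the fold against background is given as "at least".

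A mean per time was fitted to all 24 arrays in limma 3.58.1 (R 4.3.3), with 18 residual degrees of freedom (used for the 95% intervals too), two-sided tests and Benjamini-Hochberg adjustment within each comparison. The design held 9 comparisons, 5 with 0 h and 4 between neighbouring times. The other 6 pairs of times, of 15 in all, were added after seeing the data. The fit was tested on simulated data. Figures were drawn in Python 3.11.15 with matplotlib 3.10.9.

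Named genes are the 5 markers, the 3 genes most like each, up to 4 tested genes per list with the smallest adjusted p at 72 h against 0 h, and defining markers below background. Other list genes are named after their values were seen. The markers and gene lists were chosen with earlier results of these data known. Alternatives were renormalization, filters, backgrounds, choice of row, model settings, a replicate block, subsets of arrays and leaving out each array. Leaving out the 6 low-CLEC2A arrays, or giving them a term, was added after seeing the data.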

Additional observations from a re-analysis of the deposited data

Results flagged for a closer look

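Among the 30 groups of 4 arrays (5 genes at 6 times), the array farthest from the rest stood apart in 2. Chance does so in about 1 group in 20.

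MSI1 at 0 h stood out because replicate 2 read 8.14 while the other arrays read 7.76 to 7.78, so that the gap took a share of 0.949 of the range, above the critical value of 0.829. PROM1 at 48 h stood out because replicate 4 read 11.43 while the others read 11.17 to 11.21, a share of 0.834. Both are low-CLEC2A arrays. Without the 6 such arrays MSI1 differed from 0 h by 0.52 at 36 h, 0.64 at 48 h and 0.56 at 72 h.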

How the results depend on the processing

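For the 5 genes, 17 changes passed the threshold among the 9 comparisons. Over 40 alternatives each (680 values), 619 values kept direction and call, 61 kept the direction but missed the threshold, and 0 reversed. Most alternatives left out 1 array, often of neither time compared, which cannot move the difference itself. The count of 619 therefore overstates stability. Calls lost when an array of the compared times was left out are given with each gene above. The 28 changes that did not pass gave 1120 values, of which 20 passed and 29 reversed sign. With the replicate block 1 of 45 calls changed, that of NES at 48 h against 0 h (0.41, adjusted p = 0.0321 in limma). Over all tested genes the block gave 761 calls at 12 h and 3981 at 72 h, where the reported model gave 621 and 3665. Same-numbered arrays of different times had correlations of deviations from -0.35 to 0.58 in 60 pairs, 29 of them above 0.1. Their median was 0.08, against -0.08 for arrays of different numbers. Whether same-numbered arrays share an origin was not tested, and the reported model did not take them as pairs. Of 24 arrays, 14 correlated best with an array of their own number.

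Signs that reversed belonged to differences of at most 0.13 in size. Within replicates 1 and 2, VIM was -0.10 at 36 h and -0.06 at 48 h against 0 h and 0.04 at 48 h against 36 h, FABP7 0.15 and MSI1 0.18 at 24 h against 12 h, and MSI1 0.03 at 72 h against 48 h. Within replicates 3 and 4, MSI1 was -0.03 at 24 h, NES -0.10 and VIM 0.01 at 72 h against 0 h, NES 0.04 and PROM1 0.04 at 24 h against 12 h, and FABP7 -0.09 at 72 h against 48 h. Without the 6 low-CLEC2A arrays NES was -0.08 at 72 h against 0 h and VIM 0.02 at 48 h against 36 h, as it was with array weights (0.02). Leaving out single arrays gave -0.02 to 0.19 for MSI1 at 24 h and -0.02 to 0.15 for NES at 72 h against 0 h. It gave -0.16 to 0.05 for FABP7, -0.10 to 0.05 for PROM1 and -0.15 to 0.06 for MSI1 at 24 h against 12 h, -0.11 to 0.09 for VIM at 48 h against 36 h, and -0.09 to 0.02 for MSI1 at 72 h against 48 h. The cause was not tested.

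Of the 5 genes, replicates 1 and 2 alone gave 1 call at 12 h, 1 at 24 h, 1 at 48 h, 0 at 36 h against 24 h, 0 at 48 h against 36 h and 3 in the F test. Replicates 3 and 4 alone gave 0 at 12 h, 0 at 24 h, 1 at 36 h, 1 at 48 h, 0 at 36 h against 24 h, 0 at 48 h against 36 h and 3 in the F test. These fits hold 2 arrays per time, and fewer of all tested genes passed in them too. With replicates 1 and 2 the shares were 1.69% at 12 h, 1.03% at 24 h, 6.64% at 48 h, 0.245% at 36 h against 24 h and 0.225% at 48 h against 36 h. With replicates 3 and 4 they were 0.303%, 1.01%, 10% (4% at 36 h), 2.58% and 0%. Without the 6 low-CLEC2A arrays 1 passed at 12 h and 0 at 48 h against 36 h, and with no filter 0 passed at 48 h against 36 h. Leaving out single arrays gave 1 to 3 calls at 12 h, 3 to 4 at 24 h, 3 to 3 at 36 h, 2 to 3 at 48 h, 2 to 2 at 72 h, 0 to 3 at 36 h against 24 h, 0 to 1 at 48 h against 36 h and 5 to 5 in the F test. Over all genes the counts depended on the arrays: 3665 at 72 h became 2171 with replicates 1 and 2 and 1616 with replicates 3 and 4, and 621 at 12 h became 173 and 31. Without replicate 4 of 0 h the 12 h count was 286, and without replicate 3 it was 1004. The lowest counts over all alternatives were 103 at 24 h (737 in the reported model), 409 at 36 h (1739) and 678 at 48 h (2168). Between neighbouring times the lowest and highest were 0 and 1211 at 24 h against 12 h (671), 25 and 2202 at 36 h against 24 h (1467), 0 and 1402 at 48 h against 36 h (538), and 22 and 973 at 72 h against 48 h (634). The zeros were fits of replicates 3 and 4. Genes near background, such as MSI1 at 0 h, have less room to show a fall.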

Other observations

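Most tested pluripotency markers fell. Of 8, 5 were lower at 72 h than at 0 h and 1 higher, LIN28A (0.31). In this comparison 35.9% of all tested genes passed in either direction. POU5F1 was at 10.55 at 72 h against 12.36 at 0 h, L1TD1 differed by -2.05 ± 0.24 and DPPA4 by -0.96 ± 0.15, and NANOG was below background at 72 h and at least 3.63-fold lower. Of 6 tested neuron markers only MAP2, a protein of dendritic microtubules, was higher at 72 h, by 1.08 ± 0.14 (adjusted p = 2.12e-06 in limma), and 0 were lower.

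Of 11 tested filament partners and modifiers, TRIM2 (0.45) and PAK2 (0.33) were higher at 72 h than at 0 h and 0 were lower. The share of all tested genes that passed at 72 h was 35.9%, for this list and those that follow. Among neural crest markers SOX10 was below background at 0 h, and its level at 72 h was at least 1.75-fold higher, ETS1 was lower (-0.47), and FOXD3 (above background on 2 of 4 arrays at 0 h) was below background at 72 h, at least 1.09-fold lower. Among endothelium markers VWF was at 11.04 at 72 h against 7.01 at 0 h, where only 1 of 4 arrays lay above background, TEK was higher at 72 h by 0.56 ± 0.17, KDR was at least 1.76-fold lower, and PECAM1 and CDH5 were below background on all arrays. Of 11 endoderm and mesoderm markers 1 was tested, CXCR4, which was at least 1.94-fold higher at 72 h, and SOX17, FOXA2, GATA6 and TBXT lay below background on all arrays. CXCR4 and SOX10 were below background at 0 h and were tested only through arrays of later times. VWF, above background on 1 array at 0 h, also needed arrays of later times to be tested. Of the surface ectoderm and trophoblast markers only KRT7 was tested, and its difference of -0.04 did not pass (adjusted p = 0.847).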
